A study of Mus musculus with 4 samples.

Results

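Alveolar type I cells of the mouse lung were described from droplet-based scRNA-Seq of 4 libraries, in which transcripts are counted by their molecular identifiers (UMIs) and assigned to cells by barcodes. The cells were chosen by their UMIs of marker genes. A barcode was counted as a type I cell when it had 200 to 7500 genes, at most 10% mitochondrial UMIs, a UMI of at least 3 of the 6 markers Rtkn2, Ager, Hopx, Akap5, Aqp5 and Igfbp2, less than 3% of its UMIs from Sftpc, Sftpb and Sftpa1 together, and no UMI of Ptprc or Cdh5. This rule found 384 type I cells among 11846 barcodes that passed the gene and mitochondrial limits, of 15428 deposited. All mice were wild type C57BL/6 males, and the left lobe was digested and the cells were frozen before loading. Mice aged 2 to 3 months made up the young groups, and mice aged 22 months the aged groups. The methods give a food-restricted diet for the aged mice and none for the young ones, so age cannot be told apart from diet. At each age, 1 library came from naive, nonventilated mice and 1 from mice ventilated for 3 hours without end-expiratory pressure. The tidal volume was 20 mL/kg, but an absolute upper limit held it lower per kg in heavy mice. The paper reports the aged mice as heavier than the young ones, so their volume per kg may have been lower. Differences between the ages after ventilation therefore cannot be told apart from this dose. The ventilated mice also had ketamine and medetomidine anesthesia, buprenorphine, vascular lines and pure oxygen, so that ventilation cannot be told apart from these. Each library held the pooled cells of 3 mice, so no group had a replicate.

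Type I cells are the thin, wide cells that cover most of the alveolar surface and, with the capillary endothelium and a shared basement membrane, form the barrier across which gas is exchanged. They are stretched with each breath, carry many caveolae, seal the airspace with claudin-based tight junctions, move sodium and water out of it, and send growth factors such as VEGF to the vessels beneath them. Type II cells make surfactant and can become type I cells after injury, passing through a state marked by keratin 8 and p53 targets.

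The library from young nonventilated mice had 88 type I cells, the young ventilated library 122, the aged nonventilated library 101 and the aged ventilated library 73. As shares of filtered barcodes, these were 2.99% (95% exact interval 2.41 to 3.67), 3.67% (3.05 to 4.36), 3.34% (2.73 to 4.04) and 2.86% (2.25 to 3.58). All 4 intervals overlapped. These and all other intervals here cover counting error only, not the spread between mice. The median depth of a type I barcode was 2991, 2173, 7386 and 1948 UMIs, in the same order, against 9974.5, 8994, 10753 and 10971 UMIs over all filtered barcodes. The low medians come from a shallow group, since 39, 60, 37 and 37 type I barcodes (44.3, 49.2, 36.6 and 50.7%) had under 2000 UMIs, whereas those with all 6 markers had median depths of 12938, 13022, 13499 and 15475 UMIs. Without the 42 barcodes described below, Malat1, an abundant nuclear RNA, stood at 7392, 7137, 18621 and 8207 CPM, meaning UMIs per 1000000 UMIs of the barcodes summed, in the shallow group and at 85249, 74463, 75954 and 78629 CPM in barcodes of 2000 UMIs or more. Over all type I barcodes, those of 2000 UMIs or more held 95, 93.7, 96.9 and 94.1% of the UMIs. Summed over type I barcodes, the libraries held 857988, 917966, 1251961 and 694339 UMIs. No type I barcode was shared between libraries, although 23 barcode sequences of the deposited matrices were.

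**Figure D1:**
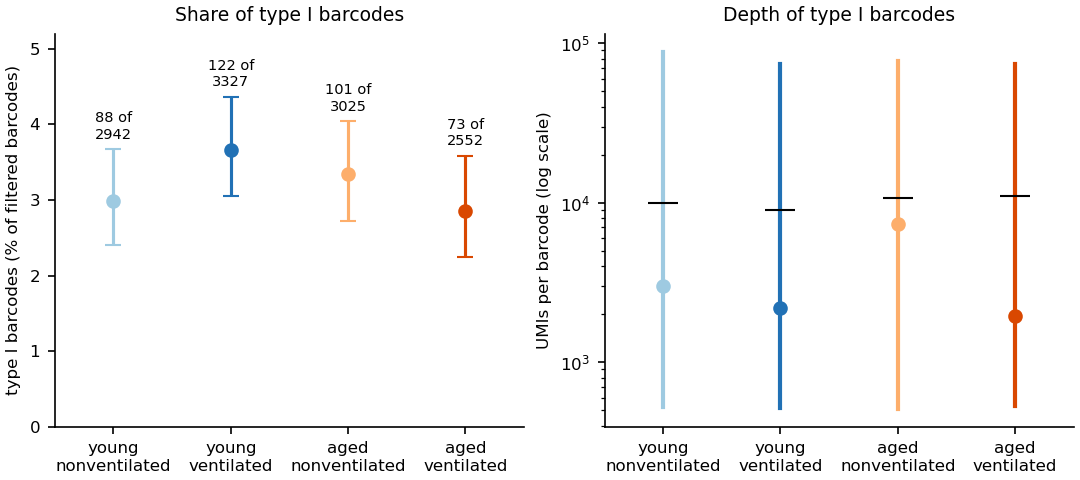
Left, type I barcodes as a percentage of filtered barcodes in each library, with exact 95% intervals and the counts. Right, UMIs per type I barcode on a log scale, where the line runs from the lowest to the highest barcode, the point is the median and the black dash is the median of all filtered barcodes. The 4 shares lie between 2.86% and 3.67% with overlapping intervals, and the type I medians lie below the medians of all barcodes.

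Markers that the rule did not use were also read. All 20 such type I markers were at 50 CPM or more in every library, at a summed level of 23807, 25717, 24643 and 26715 CPM, here and below over the UMIs of the type I cells of that library. Their presence alone does not separate type I cells from other classes, and they are set against type II cells below. They included Emp2, Clic5, Pdpn, Cav1 and Cldn18, and Lmo7, a protein of the cell cortex, was the most abundant of them in every library. Among the markers of the rule itself, Ager had a UMI in 98.9%, 100%, 96.0% and 100% of type I barcodes, whereas 7.03%, 4.28%, 6.23% and 3.66% of endothelial barcodes (1 or more Cdh5 UMIs, at median depths of 8174, 7745, 8791 and 9344 UMIs) had one. Hopx had a UMI in 61.5%, 49.2%, 59.5% and 55.3% of endothelial barcodes. Both genes are part of the rule and endothelial barcodes had fewer than 3 of its markers, so these shares are a description and no check of the label. The Cdh5 and Ptprc limits removed 37, 43, 55 and 31 barcodes that had the markers, and the surfactant limit removed 8, 14, 10 and 11. Just outside the marker threshold, 30, 20, 43 and 30 barcodes had exactly 2 markers, whose levels summed to 493, 353, 364 and 398 CPM. Just inside it, 61 type I barcodes (11, 22, 13 and 15) had exactly 3 markers, at a summed level of 685, 1752, 622 and 756 CPM and median depths of 14341, 1007, 29668 and 923 UMIs. Type I barcodes with all 6 markers had 25957, 19218, 24440 and 23514 CPM, so in their summed marker level those with 3 lay much nearer to the barcodes left out. The surfactant limit fell in a sparse range, since the highest share kept was 2.85% and 1 barcode lay at 2% or more.

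The rule also admitted barcodes with transcripts of other lineages. Of the 384 type I barcodes, 42 (11, 11, 10 and 10 per library) had a UMI of 3 or more markers of a lineage other than type I or II cells, most often of fibroblasts (20 barcodes) or of club and secretory cells (11 barcodes). They were deep and held 38.2%, 29.3%, 34.4% and 32.8% of the type I UMIs. In 9 of them, Scgb1a1, the main secretory protein of club cells, made up over 5% of UMIs, and these 9 barcodes had 1 Rtkn2 UMI in total. The summed club and secretory markers stood at 116349, 28449, 102266 and 52525 CPM with all type I barcodes, nearly all from Scgb1a1, and at 104, 313, 179 and 135 CPM without the 42 barcodes. Fibroblast markers stood at 1871, 683, 1184 and 585 CPM, led by Inmt in 3 libraries and Mfap4 in the young ventilated library, and at 32.1, 38.5, 20.7 and 12.9 CPM without those barcodes. Club and fibroblast markers were thus lower in the ventilated library at each age with all barcodes, but higher in the young ventilated library without the 42, and their part in the results was not tested other than by leaving the 42 barcodes out. Pericyte and smooth muscle markers stood at 75.8, 899, 39.9 and 57.6 CPM, led by Tagln and high in the young ventilated library, and at 12.3 CPM or less without those barcodes. Type II markers were not used to choose the 42, and 6, 14, 13 and 10 type I barcodes had 3 or more of them. Their summed level was 1712, 527, 1793 and 961 CPM, led by surfactant genes, and 140, 313, 286 and 257 CPM without the 42 barcodes, so that the young ventilated library was then above the nonventilated one instead of below it. Endothelial markers summed to at most 63.2 CPM and leukocyte markers to at most 60.5 CPM, with Ptprc and Cdh5 at 0 by the rule. Ciliated cell markers stood at 367, 427, 505 and 603 CPM, led by Tppp3, and at 508, 382, 470 and 309 CPM without the 42, where both ventilated libraries were lower instead of higher, and basal cell markers were at or near 0. The whole barcodes were kept as the rule states, and levels without the 42 barcodes, called the restricted set, are given where leaving them out moved a ratio between libraries by more than 1.5 times or took it across the threshold. Doublets were not called.

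Promoter sequences are shown for 5 genes described below, as the 250 bases before the start site in RefSeq on GRCm38.p6, all on the plus strand, 5′ to 3′. The metallothionein genes Mt1 (chr8:94178839-94179088) and Mt2 (chr8:94172368-94172617) are shown with the core of the metal response element, TGCACNC, in capitals on either strand.

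Mt1: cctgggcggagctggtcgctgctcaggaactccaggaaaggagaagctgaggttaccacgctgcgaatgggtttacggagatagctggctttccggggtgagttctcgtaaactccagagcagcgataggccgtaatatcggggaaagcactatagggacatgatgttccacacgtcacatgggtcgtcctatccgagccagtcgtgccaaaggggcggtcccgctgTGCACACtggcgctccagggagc

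Mt2: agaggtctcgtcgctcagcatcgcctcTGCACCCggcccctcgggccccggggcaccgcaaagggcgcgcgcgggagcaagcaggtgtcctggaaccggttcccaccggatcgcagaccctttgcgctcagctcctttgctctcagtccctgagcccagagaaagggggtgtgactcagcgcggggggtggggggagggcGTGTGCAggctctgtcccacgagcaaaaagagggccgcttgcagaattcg

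The promoter of Gclm (chr3:122245307-122245556), a subunit of the enzyme that starts glutathione synthesis and a classic NRF2 target, is shown with the core of the antioxidant response element, TGACNNNGC, in capitals.

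Gclm: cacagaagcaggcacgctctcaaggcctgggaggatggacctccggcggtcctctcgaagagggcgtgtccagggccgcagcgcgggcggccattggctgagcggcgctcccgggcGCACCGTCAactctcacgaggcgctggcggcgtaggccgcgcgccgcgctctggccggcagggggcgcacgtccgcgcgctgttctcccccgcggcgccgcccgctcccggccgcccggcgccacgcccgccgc

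The promoters of F3 (chr3:121723287-121723536), which encodes tissue factor, and Plaur (chr7:24462233-24462482), the urokinase receptor, are shown with AP-1 sites, TGANTCA, in capitals.

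F3: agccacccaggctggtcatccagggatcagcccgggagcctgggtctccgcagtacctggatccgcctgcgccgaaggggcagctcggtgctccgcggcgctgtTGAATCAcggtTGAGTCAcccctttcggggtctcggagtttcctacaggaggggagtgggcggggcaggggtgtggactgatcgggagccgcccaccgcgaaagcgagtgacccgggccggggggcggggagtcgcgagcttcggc

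Plaur: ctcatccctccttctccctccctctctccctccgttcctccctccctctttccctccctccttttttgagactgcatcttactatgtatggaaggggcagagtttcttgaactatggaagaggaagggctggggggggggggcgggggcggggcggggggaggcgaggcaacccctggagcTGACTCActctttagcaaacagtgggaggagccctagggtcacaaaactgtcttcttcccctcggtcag

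Over 32851 promoter windows of this length, 10.4% held the metal element core, 10.2% the antioxidant element core and 6.75% the AP-1 letters, and 276 windows held both of the last, whose letters can overlap. Of 19 NRF2 target genes, 14 had a window, and 5 of these held the antioxidant core (Gclm, Txnrd1, Prdx1, G6pdx and Pir). Of 20 genes of the transitional epithelial state, 13 had a window, and 4 held AP-1 letters (Cldn4, Plaur, Sprr1a and F3). AP-1 letters were held by 4 of the 14 NRF2 targets, and the antioxidant core by 2 of the 13 transitional genes. Of 17 immediate early genes with a window, 4 held the antioxidant core and 0 AP-1 letters, and of 11 heat shock genes 2 and 1. These counts are per gene, in any of its windows, whereas the shares above are per window, so they cannot be compared directly. A match of letters is a description of the sequence and not a site of binding.

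Type I cells were first compared with the type II cells of the same libraries, to show which genes mark them beyond the rule. Type II cells were the 19, 32, 24 and 19 barcodes with 3% or more of UMIs from the 3 surfactant genes and no Ptprc or Cdh5 UMI. With edgeR's quasi-likelihood test on UMIs summed per library and class, and the library as a block, 2272 of 6977 genes differed (32.6%) at a Benjamini-Hochberg adjusted p under 0.05, of which 1115 were higher in type I cells (16%) and 1157 lower (16.6%). All 20 type I markers outside the rule were higher, with a median log2 difference of 3.14, and all 9 tested type II markers were lower, with a median of -6.39, against a median of 0.04 over all genes tested. The surfactant limit sets the direction of the type II markers. The 6 markers and the 3 surfactant genes of the rule were fitted and adjusted with the rest but left out of these counts.

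Of the secreted signals, 11 of 13 tested genes were higher in type I cells and none lower, against 16% and 16.6% of all genes tested. Sema3e, a guidance cue of the semaphorin family, stood at 1075, 965, 1221 and 979 CPM in the type I cells, in the order of libraries used above, and at 0, 9.53, 2.01 and 0 CPM in type II cells (log2 difference 8.08, SE 0.50, adjusted p = 2.15e-05). Sema3a, another semaphorin, stood at 729.6, 270.2, 736 and 245 CPM against 0, 7.62, 6.03 and 0 CPM (log2 difference 6.69, SE 0.51, adjusted p = 3.94e-05). Vegfa, the vascular growth factor, was higher by 3.36 on the log2 scale (SE 0.30, adjusted p = 8.68e-05), and Pdgfa, which acts on fibroblasts, by 2.77 (SE 0.35, adjusted p = 0.000469). Each of these genes was higher in type I cells in all 4 libraries. Of the structural lists, 7 of 8 caveola genes were higher and 0 lower, and of 19 basement membrane and integrin genes 13 were higher and 1 lower. Junction genes went both ways, with 8 of 17 higher and 3 lower, as did ion and water transport, with 5 of 13 higher and 6 lower. Cav1, the caveola coat protein, stood at 973, 821, 857 and 798 CPM in type I cells and at 13.5, 32.4, 2.01 and 4.39 CPM in type II cells.

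The largest differences included genes outside the lists. Rasgrf2, a Ras exchange factor, stood at 331, 136, 380.2 and 108 CPM and Cdh13, a cadherin anchored by lipid, at 319, 202, 259 and 97.9 CPM in type I cells, and neither had a UMI in type II cells, where a count of 0 allows levels up to 8.12, 5.72, 6.03 and 6.58 CPM. Scel, which encodes sciellin, stood at 653, 712, 679 and 759 CPM against 0, 13.3, 0 and 0 CPM. On the other side, Il33, an alarmin cytokine, had no UMI in any type I library and stood at 441, 717, 500 and 662 CPM in type II cells. With 3 UMIs as the limit that a count of 0 allows, this corresponds to levels below 3.497, 3.27, 2.40 and 4.32 CPM in type I cells. Lamp3 and Napsa, proteins of the lamellar body pathway, and Slc34a2, its phosphate carrier, were lower by 9.17, 8.37 and 8.56 on the log2 scale. Markers of club cells (3 of 3 tested) and fibroblasts (4 of 7) were also higher in type I cells, which goes with the 42 barcodes described above. Without these barcodes, 2589 genes differed, of which 2036 were among the 2272.

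The question of the main comparison was how type I cells differed after ventilation at each age. Since there was 1 library per group, the difference at each age had no replicate and was not tested. A gene was counted as measured when its mean was 50 CPM or more over both libraries compared and 1 of them had 20 or more UMIs, and as past the threshold when the ratio was 2-fold or more. Log2 ratios carry 1 UMI added to each sum. In young mice, 344 of 3432 measured genes were higher in the ventilated library (10%) and 177 were lower (5.16%). In aged mice, 192 of 3419 were higher (5.62%) and 151 were lower (4.42%). The median gene differed by 0.13 on the log2 scale in young mice and by 0.09 in aged mice, and by -0.01 at both ages with the restricted set, where 267 genes were higher (7.6%) and 250 lower (7.12%) in young mice and 166 (4.75%) and 142 (4.06%) in aged mice. Counted in either direction, 521 genes (15.2%) were past the threshold in young and 343 (10%) in aged mice, and 517 (14.7%) and 308 (8.81%) with the restricted set. With the log2 ratios centred on the median gene, 273 genes were higher and 228 lower in young mice and 163 higher and 174 lower in aged mice, so that the majority of higher genes was smaller in young and absent in aged mice. With the 4 sums thinned to the depth of the smallest, 545 genes were past the threshold in young and 357 in aged mice. More genes were past the threshold in young mice under each of these settings. With the mean of CPM per barcode the counts were closer, at 621 in young and 562 in aged mice. The difference between the ages was not tested, since there was 1 pool per group.

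The 2 ages shared part of their differences. Of 3149 genes measured at both, 283 were higher past the threshold in young and 159 in aged mice, and 150 and 129 were lower. Of these, 113 were higher past the threshold at both ages, which was 39.9% of those higher in young and 71.1% of those higher in aged mice. A further 66 were lower at both, 44% of those lower in young and 51.2% of those lower in aged mice. The ages share no library. Irf1 was the 1 gene that was higher past the threshold in young and lower in aged mice, and in the restricted set its aged log2 ratio was 0.92, in the other direction.

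**Figure D2:**
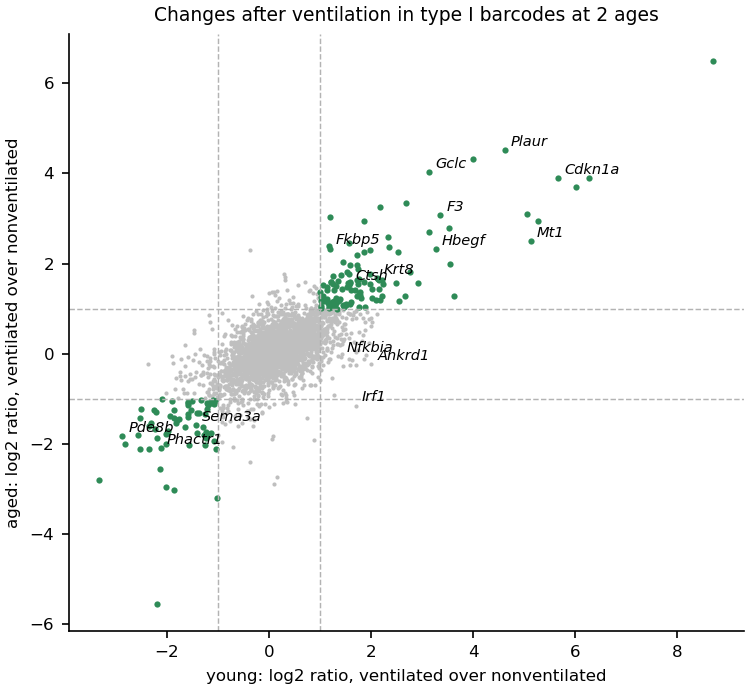
Log2 ratio of CPM (1 UMI added to each sum), ventilated over nonventilated, in the type I cells of young mice (x axis) and aged mice (y axis), 1 point per gene measured at both ages. Dashed lines mark 2-fold, green points are the 113 genes higher and the 66 lower past 2-fold at both ages, and named genes are those the text describes.

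Most genes of the transitional epithelial state, a list of keratins, annexins, adhesion genes and stress genes, were higher after ventilation. Of 20 such genes, 15 were measured, and 13 were past the threshold upward at each age and none downward, against 10% and 5.62% of all measured genes. The counts were 11 of 14 in young and 8 of 14 in aged mice with the restricted set. The median log2 ratio of the measured genes was 1.98 in young and 1.56 in aged type I cells. For the same genes it was 2.11 and 0.32 in endothelial cells and 2.77 and 1.07 in type II cells, so the rise was not limited to type I cells. This list was chosen with results of these libraries known, so its direction is not independent evidence.

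Plaur, which localizes urokinase to the cell surface, stood at 18.6 and 485 CPM in the young nonventilated and ventilated libraries, a ratio of 26 (95% interval 15.8 to 45.9). In aged mice it stood at 15.2 and 364 CPM, a ratio of 24 (95% interval 15.1 to 40.5). The ventilated libraries were high at both ages, although the aged ratio rests in part on the 42 barcodes, since the levels were 11 and 105 CPM in the restricted set and 1 barcode held 33.2% of the UMIs in the aged ventilated library. F3, the receptor that starts the clotting cascade, stood at 156 and 1609 CPM in young and 166 and 1399.9 CPM in aged mice, ratios of 10.3 (95% interval 8.63 to 12.4) and 8.43 (95% interval 7.25 to 9.83). Hbegf, a ligand of the EGF receptor shed from the membrane, stood at 196 and 1896 CPM in young and 268 and 1338 CPM in aged mice (log2 ratios 3.27 and 2.31). Tnfrsf12a, the receptor for the cytokine TWEAK, stood at 66.4 and 773 CPM in young and 67.9 and 472 CPM in aged mice. For F3, Hbegf and Tnfrsf12a, the 2 ventilated libraries stood several times above the 2 nonventilated ones with and without the 42 barcodes, and the 2 nonventilated libraries lay close together.

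Among 3 keratins of simple epithelia the order was the same. Krt8 stood at 317 and 1388 CPM in young and 438 and 1399.9 CPM in aged mice. Krt18, its partner, stood at 333 and 1322 CPM in young and 409 and 1203 CPM in aged mice. Krt19 had nearly the same levels, 319 and 1292 CPM and 450.5 and 1214 CPM. All 3 keratins were thus several times higher after ventilation at both ages. In the restricted set, the aged log2 ratios were smaller, at 1.07, 0.76 and 1.02, and Krt18 was no longer past the threshold. Krt7, a keratin of the same list, was not past it, at 1152 and 1576 CPM in young and 1104 and 1456 CPM in aged mice. Itgb6, a subunit of the integrin that activates TGF-β, stood at 212 and 703 CPM in young and 306 and 740.3 CPM in aged mice. Ctsh, a lysosomal protease that processes surfactant proteins in type II cells, stood at 175 and 524 CPM in young and 279 and 808 CPM in aged mice, with log2 ratios of 1.58 and 1.53, and 1.65 and 1.43 in the restricted set. Anxa1, an anti-inflammatory annexin, stood at 416 and 1846 CPM in young and 403 and 1096 CPM in aged mice, and its aged log2 ratio was 0.73 in the restricted set.

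Cdkn1a, Sfn and Gadd45g, 3 genes linked to growth arrest, were low in nonventilated type I cells and several times higher after ventilation. Cdkn1a, which encodes the cell cycle inhibitor p21, stood at 3.5 and 235 CPM in young and 20.8 and 321 CPM in aged mice, on 3, 216, 26 and 223 UMIs, and at 1.89, 237, 19.5 and 326 CPM in the restricted set. The young ratio was 67.3 (95% interval 22.7 to 329), a wide interval since the first value rests on 3 UMIs. Sfn, the p53 target 14-3-3 sigma, stood at 10.5 and 753 CPM in young and 54.3 and 719 CPM in aged mice, and at 1.89, 838, 19.5 and 201 CPM in the restricted set. Gadd45g, a growth arrest gene induced by stress, stood at 55.9 and 367 CPM in young and 39.1 and 405 CPM in aged mice, and at 11.3, 438, 26.8 and 557 CPM in the restricted set. These genes were low in both nonventilated libraries and high in both ventilated libraries, whichever barcodes were kept. Of the 15 genes on the p53 target list, 5 were measured in young and 6 in aged mice, and Cdkn1a and Sfn were those past the threshold at each age. Past it in the restricted set were 2 of 7 at each age, and the list medians were then 0.08 and 0.41 on the log2 scale.

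**Figure D3:**
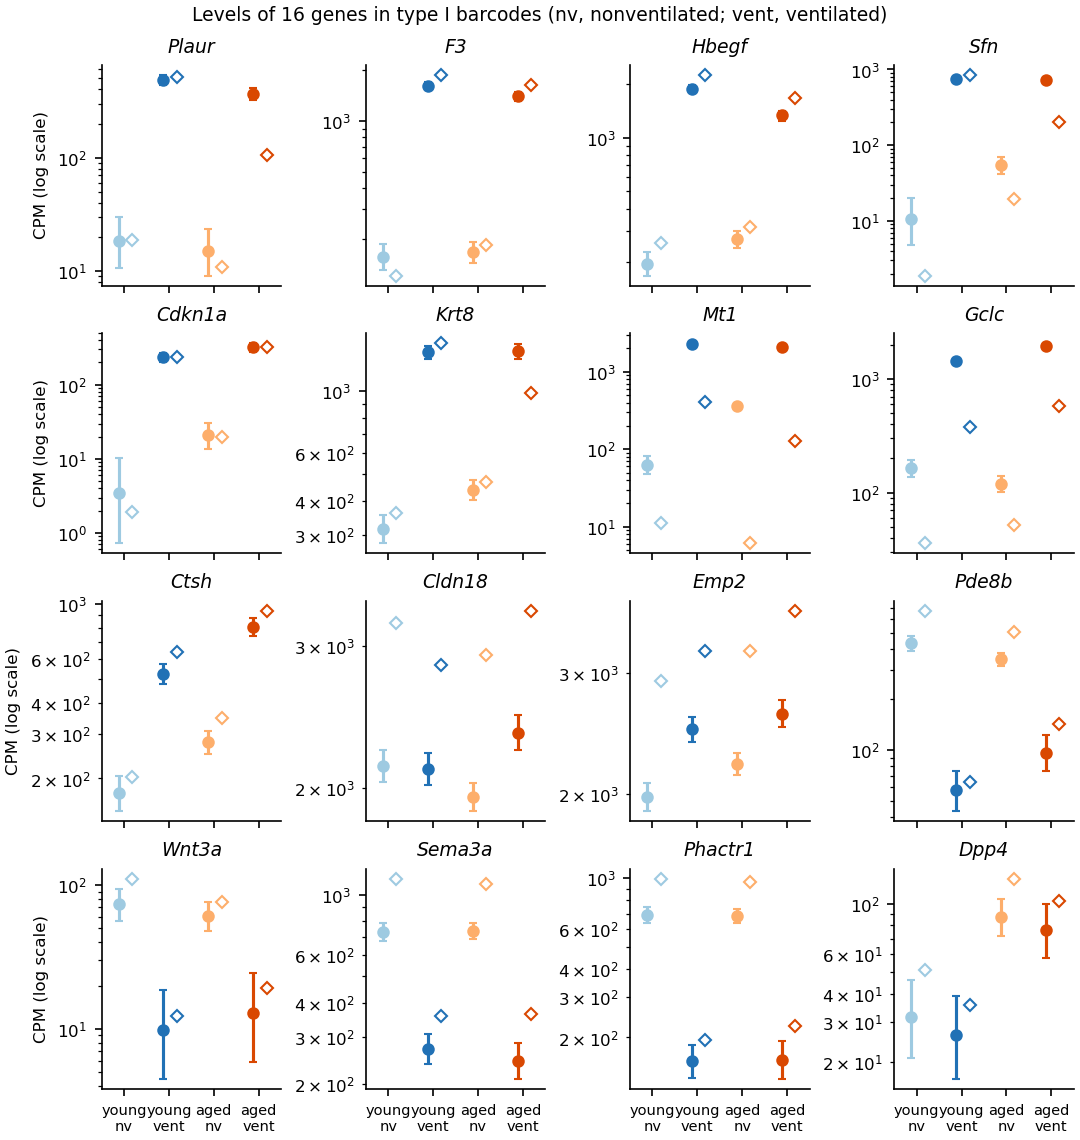
Level of 16 genes in type I cells of the 4 libraries in CPM on a log scale, with a panel per gene. Filled points are all type I barcodes with exact 95% Poisson intervals, and open diamonds are the restricted set. Plaur, F3, Hbegf, Sfn and Cdkn1a are high in both ventilated libraries, Pde8b, Wnt3a, Sema3a and Phactr1 are low in them, Cldn18 and Emp2 are level, and Dpp4 is higher in both aged libraries. Each panel has its own axis range.

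Part of the oxidative stress genes were higher past the threshold after ventilation, and for some much of the level came from few barcodes. Of 19 targets of NRF2, the regulator of antioxidant genes, 9 of 14 measured were past the threshold upward in young and 7 of 13 in aged mice. These were 6 of 11 and 3 of 10 with the restricted set. Here and for the lists that follow, the shares of all measured genes that were higher, for comparison, are 10% in young and 5.62% in aged mice, and 7.6% and 4.75% with the restricted set. The shares that were lower are 5.16% and 4.42%, and 7.12% and 4.06%. Hmox1, heme oxygenase, had no UMI in the young nonventilated library and stood at 484 CPM in the young ventilated library. That was 138-fold the level that a count of 0 allows, and the exact interval of the ratio began at 112. In aged mice Hmox1 stood at 7.19 and 719 CPM. A single barcode held 68.5% of its UMIs in the young ventilated and 97.8% in the aged ventilated library, and the restricted set had 0, 159, 7.3 and 10.7 CPM. Gclc, the catalytic subunit of glutathione synthesis, stood at 164 and 1447 CPM in young and 119.8 and 1960.1 CPM in aged mice, and at 35.8, 379, 52.3 and 583 CPM in the restricted set. Its log2 ratios, 3.13 and 4.02, were 3.33 and 3.45 there, so all 4 levels were lower there, and so was the aged ratio. Gclm stood at 42 and 219 CPM in young and 47.9 and 251 CPM in aged mice, and its aged log2 ratio of 2.37 was 0.48 in the restricted set. Txnrd1, thioredoxin reductase, stood at 97.9 and 553 CPM in young and 167 and 497 CPM in aged mice. Osgin1, a growth inhibitor induced by oxidative stress, stood at 29.1 and 135 CPM in young and 24.8 and 241 CPM in aged mice, and at 5.66, 137, 18.3 and 83.6 CPM in the restricted set.

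Some metal and glucocorticoid responsive genes were higher as well. Of 12 genes on this list, 5 of 9 measured were past the threshold upward in young and 6 of 9 in aged mice, and 4 of 7 and 6 of 8 with the restricted set. The lowest of them at each age was Per1, a clock gene that glucocorticoids induce, with log2 ratios of -0.35 and -0.80. Mt1, a metal-binding metallothionein whose promoter is printed above, stood at 62.9 and 2242 CPM in young and 363 and 2068 CPM in aged mice. A single barcode held 74.5% of its UMIs in the aged ventilated library, and the restricted set had 11.3, 408, 6.09 and 129 CPM, with both ventilated libraries still far above the nonventilated ones (log2 ratios 4.96 and 4.16). Mt2 stood at 12.8, 537, 56.7 and 442 CPM and at 0, 77, 1.22 and 32.1 CPM in the restricted set. Among the glucocorticoid targets, Sgk1, a kinase that keeps sodium channels at the membrane, stood at 42 and 293 CPM in young and 75.9 and 266 CPM in aged mice. Fkbp5, a cochaperone of the glucocorticoid receptor, stood at 51.3 and 119 CPM in young and 55.9 and 284 CPM in aged mice, and Tsc22d3, which encodes GILZ, at 164 and 206 CPM in young and 142 and 439 CPM in aged mice. The log2 ratios of the last 2 genes were 1.19 and 0.32 in young and 2.33 and 1.62 in aged mice, and 1.01, 0.33, 2.29 and 1.63 in the restricted set. Whether the ages differ in these genes was not tested.

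Most heat shock genes were higher past the threshold after ventilation, at 12 of 13 measured in young and 11 of 14 in aged mice. They were 8 of 13 and 4 of 10 with the restricted set. Hsp90aa1, a cytosolic chaperone, stood at 844 and 2701 CPM in young and 965 and 2582 CPM in aged mice. Hspa8, the constitutive form of HSP70, stood at 717 and 2390.1 CPM in young and 704 and 2047 CPM in aged mice. Hspb1, a small heat shock protein, stood at 216 and 714 CPM in young and 219.7 and 1005 CPM in aged mice. All 3 were more than 2-fold higher after ventilation at each age, but Hsp90aa1 had an aged log2 ratio of 0.86 in the restricted set, below the threshold. In immediate early genes, which dissociation of tissue also induces, 9 of 19 measured were past the threshold upward in young and 2 of 17 in aged mice, and 12 of 16 and 6 of 15 with the restricted set. Fosl1, an AP-1 subunit, stood at 2.33, 134, 4.79 and 56.2 CPM. Fosl2, a related subunit, stood at 62.9, 172, 59.9 and 163 CPM, and its aged log2 ratio was 1.44, and 2.05 in the restricted set. Atf3, a stress-induced factor of the same family, stood at 238, 932, 386 and 454 CPM, with log2 ratios of 1.97 and 0.24, and 2.72 and 0.46 in the restricted set. Both Fosl genes were higher after ventilation at each age. Fos stood at 662, 1389, 744 and 766 CPM with all barcodes and 230.2, 1349.9, 185 and 465 CPM in the restricted set. The effect of dissociation, which all libraries share, was not tested.

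Another set of genes was lower after ventilation. Pde8b, a phosphodiesterase that degrades cAMP, stood at 431 and 57.7 CPM in young mice, a ratio of 0.134 (95% interval 0.0984 to 0.179), and at 346 and 96.5 CPM in aged mice, a ratio of 0.279 (95% interval 0.212 to 0.362). Phactr1, a regulator of actin and protein phosphatase 1, stood at 690.0 and 158 CPM in young and 684 and 159.9 CPM in aged mice (log2 ratios -2.12 and -2.09). Pdzrn3, a ubiquitin ligase, stood at 265 and 51.2 CPM in young and 212 and 47.5 CPM in aged mice. The 2 nonventilated libraries lay close together for each of them, and the 2 ventilated libraries were low. Foxp2, a forkhead transcription factor of the lung epithelium, stood at 216, 29.4, 154 and 37.4 CPM, and Swap70, an actin-binding signaling protein, at 239, 45.8, 202 and 64.8 CPM. In the restricted set, these 5 genes had log2 ratios between -3.35 and -2.35 in young and between -2.11 and -1.67 in aged mice.

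Some signals that type I cells send to their neighbours were lower after ventilation. Sema3a had levels of 729.6 and 270.2 CPM in young and 736 and 245 CPM in aged mice, ratios of 0.37 (95% interval 0.318 to 0.43) and 0.333 (95% interval 0.281 to 0.392). Wnt3a, a Wnt ligand whose mean was just below the measured level, stood at 73.4 and 9.8 CPM in young and 60.7 and 13 CPM in aged mice. Pdgfa stood at 381 and 223 CPM in young and 396 and 189 CPM in aged mice (log2 ratios -0.77 and -1.06). Fgf18, a growth factor of alveolar development that was also below that level, stood at 39.6, 10.9, 25.6 and 5.76 CPM. Vegfa, by contrast, stood at 1756, 1718, 1657 and 1964 CPM, level across the libraries. Of 19 secreted signals in all, 10 were measured in young and 11 in aged mice, of which Nrg1 was higher and Sema3a lower past the threshold in young mice, and Sema3a and Pdgfa were lower in aged mice, against 5.16% in young and 4.42% in aged mice of all measured genes. With the 42 barcodes left out, 0 of 12 were higher and 2 lower in young and 2 of 11 lower in aged mice, and the young log2 ratio of Nrg1 was 0.61 in place of 1.02. 

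The genes of the basement membrane and its integrins went both ways. Col4a4, a chain of the mature alveolar collagen IV network, stood at 973, 455, 1034 and 681 CPM. Lama3, a laminin chain, stood at 515, 223, 466 and 327 CPM. Col4a6, with a mean below the measured level, stood at 75.8, 18.5, 69.5 and 10.1 CPM. All 3 were lower in the ventilated than in the nonventilated library of the same age. Col4a1, a chain of the common collagen IV, stood at 408, 772, 405 and 1106 CPM. It was higher after ventilation at each age. Of 17 measured genes of this list, 4 were higher and 2 lower past the threshold in young mice, and 2 were higher and 1 lower in aged mice. With the restricted set, 2 of 18 were higher and 3 lower in young mice, and 3 of 16 were higher and none lower in aged mice. The lower one in aged mice with all barcodes was Itga6, for which 1 barcode held 87.5% of the UMIs in the aged nonventilated library. Of 16 clock genes, 7 were measured in young and 8 in aged mice, with 0 and 2 lower past the threshold, against 5.16% and 4.42% of all measured genes. These 2 were Nr1d1, at 114, 59.9, 94.3 and 31.7 CPM, and Nr1d2, at 107, 71.9, 84.7 and 31.7 CPM, which encode the REV-ERB repressors. The restricted set had 2 of 7 lower in young and 2 of 7 lower and 1 higher in aged mice. In the restricted set, Nr1d2 had log2 ratios of -1.09 and -1.85. Per3 stood at 68.8, 19.6, 76.7 and 15.8 CPM, with a mean below the measured level. The times of day at which the lungs were taken were not analysed here.

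Genes of type I cell identity and function were mostly level. Of the 20 markers outside the rule, none was higher past the threshold at either age and 1, Col4a4, was lower in young mice. With the restricted set, Scnn1g was also lower in young mice (log2 ratio -1.12). Emp2, a tetraspan membrane protein, stood at 1978, 2484, 2209 and 2619.8 CPM, and Cldn18, the main alveolar claudin, at 2131, 2111, 1949 and 2343 CPM. Of the markers of the rule, Rtkn2 had the largest differences, with 2729.6, 577, 2309 and 727 CPM, whereas Ager stood at 8013, 7940.4, 7169 and 8259.6 CPM and Hopx at 4235, 3880.3, 3744 and 4329 CPM. Since the rule used these genes, their values are a description.

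Among 16 measured junction genes, 3 were higher past the threshold in young mice (Cgn, Cldn7 and Epcam) and 1 in aged mice (Epcam), against 10% and 5.62% of all measured genes, and 3 of 15 and 1 of 15 in the restricted set, against 7.6% and 4.75%. Cgn, the junction adaptor cingulin, stood at 136, 355, 145 and 277 CPM. In aged mice, its log2 ratio was 0.93, and 1.09 in the restricted set, where Epcam had 0.37. Among 10 measured genes of ion and water transport, 1 was past the threshold in young mice and 2 in aged mice, with Sgk1 among them at both ages, and 2 of 10 were higher and 1 lower in young and 2 of 9 higher in aged mice with the restricted set. Atp1b1, a subunit of the sodium pump, stood at 132, 127, 137 and 187 CPM, level with all barcodes, and at 32.1, 100.2, 15.8 and 55.7 CPM in the restricted set, where it was higher after ventilation at both ages (log2 ratios 1.58 and 1.76). Scnn1g, a subunit of the epithelial sodium channel, stood at 228, 121, 280.4 and 324 CPM, low in the young ventilated library alone. Of the stretch-related genes, Piezo1, a mechanically gated channel, stood at 71.1, 287, 93.5 and 143 CPM. Ankrd1, a YAP target induced by mechanical load, stood at 67.6, 275, 109 and 92.2 CPM. Both were high in the young ventilated library, and Ankrd1 was level in aged mice. Of the list of mechanosensing channels and Hippo regulators, 1 of 6 measured genes was higher past the threshold in young and 0 of 5 in aged mice, with medians of -0.17 and -0.33 on the log2 scale. With the restricted set, 1 of 6 was higher in young mice and 1 of 7 was lower in aged mice. Of measured YAP and TEAD targets, 3 of 9 were higher past the threshold in young and 0 of 8 in aged mice, and 2 of 8 and 0 of 8 with the restricted set. Nfkbia, the inhibitor of NF-κB and itself its target, stood at 228, 607, 261 and 249 CPM. No glycolysis gene was past the threshold at either age, of 7 measured in young and 8 in aged mice.

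**Figure D4:**
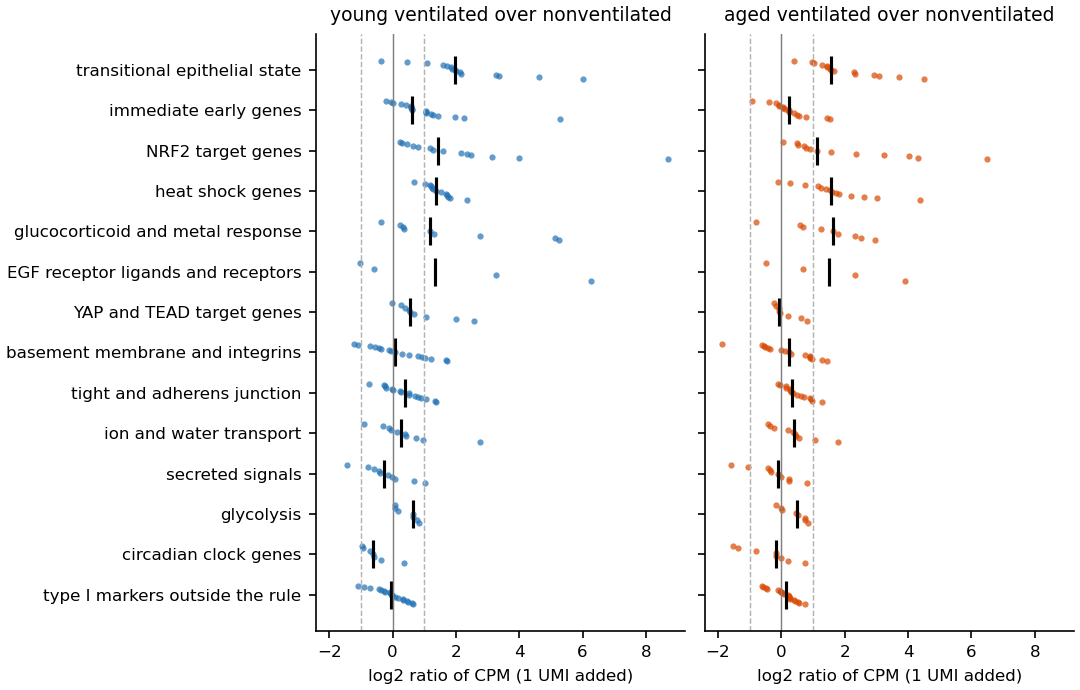
Log2 ratio of CPM after ventilation (x axis) for the measured genes of 14 lists (y axis), 1 point per gene, in the type I cells of young (left) and aged (right) mice. Black bars are list medians, and dashed lines mark 2-fold. Most points of the transitional and heat shock lists lie right of 2-fold at both ages, and the type I markers outside the rule lie around 0.

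Few genes of type I cells differed with age in the summed UMIs. Between the nonventilated libraries, 39 of 3362 measured genes were higher in aged mice (1.16%) and 11 lower (0.327%), and 15 of 3559 (0.421%) and 10 (0.281%) with the restricted set, or 50 (1.49%) and 25 (0.702%) in either direction. Between the ventilated libraries, 90 of 3452 genes were higher in aged mice (2.61%) and 87 lower (2.52%), and 87 (2.55%) and 82 (2.4%) with the restricted set, or 177 (5.13%) and 169 (4.95%) in either direction. More were past the threshold with the mean of CPM per barcode, at 264 of 3384 in nonventilated and 383 of 3344 in ventilated mice. Of 2931 genes measured in both conditions, 3 were higher past the threshold in aged mice in both, and none was lower in both. Dpp4, a serine protease of the cell surface, was the 1 of these 3 that was also past the threshold in the restricted set. Its level was 31.5 and 87.1 CPM in young and aged nonventilated mice and 26.1 and 76.3 CPM in young and aged ventilated mice, and it was higher in both aged than in both young libraries. The other two, Cd24a and Ifi27l2a, had log2 ratios between -1.63 and 0.78 in the restricted set.

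With the restricted set, 5 genes were higher past the threshold in aged mice in both conditions, namely Fmo2, Dpp4, Naaladl2, Gpr137c and AC149090.1. Fmo2, a flavin monooxygenase of the lung, stood there at 37.7 and 247 CPM in young and aged nonventilated and 41.6 and 229 CPM in young and aged ventilated mice. With all barcodes the levels were 333 and 646 and 379 and 474 CPM, and the differences were below the threshold. Cnn3, an actin-binding calponin, stood at 1.89 and 84 CPM in nonventilated and 3.08 and 66.4 CPM in ventilated mice in the restricted set, near the floor in both young libraries, and at 28 and 75.1 and 38.1 and 69.1 CPM with all barcodes. Chrm3, a muscarinic receptor, stood at 76.9 and 203 CPM in young and aged nonventilated mice and at 14.2 and 41.8 CPM after ventilation, higher in aged mice in each condition and lower after ventilation at each age. Gja1, which encodes connexin 43, stood at 107, 296, 36.7 and 151 CPM, lower in aged mice in each condition and higher after ventilation at each age. B2m, the light chain of MHC class I, stood at 368, 419, 585 and 603 CPM, with both aged libraries above both young ones but by less than 2-fold.

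To test which changes differed between type I cells and another class, their response to ventilation was set against that of the endothelial cells of the same libraries. Endothelial cells were 1067, 1029, 867 and 683 barcodes with a Cdh5 UMI, no Ptprc UMI and fewer than 3 type I markers. The interaction of cell class and ventilation was fitted with the library as a block and the ages together. It was past an adjusted p of 0.05 (edgeR) for 102 of 13881 genes (0.735%). For 39 of these it was positive (0.281%), meaning a higher log2 ratio after ventilation in type I than in endothelial cells, and for 63 negative (0.454%). The sign gives neither the level nor the direction within type I cells. Mmp15 was positive with log2 ratios of 0.22 and 0.31 in young and aged type I cells, against -4.21 and -2.83 in endothelial cells. The count of 102 rested on single libraries, at 9 without the young nonventilated library, 20 without the aged nonventilated, 306 without the young ventilated and 287 without the aged ventilated library. It was 505 with the restricted set, which held 86 of the 102.

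The 3 genes that passed with any 1 library left out and with the restricted set were Plaur, Sema3a and Pdgfa. Sema3a was lower after ventilation in type I cells, as given above, and stood at 14.6, 50.9, 9.96 and 65.2 CPM in endothelial cells, where both ventilated libraries were high (interaction -3.99 on the log2 scale, SE 0.29, adjusted p = 0.00477). Pdgfa had the same crossed pattern, with 23.7, 90.4, 27.1 and 96.8 CPM in endothelial cells (interaction -3.04, SE 0.24, adjusted p = 0.00477). Plaur stood at 388, 641, 429 and 678 CPM in endothelial cells, above the type I cells in every library (interaction 3.73, SE 0.30, adjusted p = 0.00477). The gap was wide before ventilation and smaller after it, although in the restricted set the ventilated type I levels were 513 and 105 CPM, so that the aged one stayed far below the endothelium. In type II cells Plaur stood at 2.71, 70.5, 2.01 and 11 CPM, also higher after ventilation. The 2 nonventilated levels lay below the 8.12 and 6.03 CPM that a count of 0 allows, so the aged difference rests on few UMIs. The interaction between type I and type II cells did not pass (0.64, SE 1.59, edgeR adjusted p = 0.960). Cdkn1a stood at 302, 638, 415 and 656 CPM in endothelial cells, with an interaction of 3.40 (SE 0.45, adjusted p = 0.0219, and up to 0.0528 with 1 library left out). Smim3 and Synpo, a podocyte actin regulator, had the same crossed pattern as Sema3a, with interactions of -3.74 (SE 0.49, adjusted p = 0.0219) and -3.90 (SE 0.47, adjusted p = 0.0150). The aged log2 ratio of Synpo in type I cells was -2.03, and -0.98 in the restricted set. Of the 10 named genes with a positive interaction, Hmox1 and Cbr3 did not pass with the restricted set (adjusted p = 0.439 and 0.798), and of the 10 with a negative one, Dock4 did not (adjusted p = 1).

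Most lists held few or no genes with a different response. Against 0.281% of all genes tested, 3 of 14 heat shock genes had a positive interaction, of 19 transitional genes 1 (Plaur), of 19 NRF2 targets 2, and of 12 glucocorticoid and metal genes 2. The 2 NRF2 targets, Hmox1 and Cbr3, did not pass with the restricted set. None of the 20 type I markers outside the rule, of 22 immediate early genes or of 19 junction genes passed in either direction. In simulated data with the same libraries and model, 8% of genes with a 4-fold difference in response were recovered. The simulation used a set spread and equal mean levels in both classes, so this share is not the power of the test here. A gene that did not pass is not shown to respond alike.

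**Figure D5:**
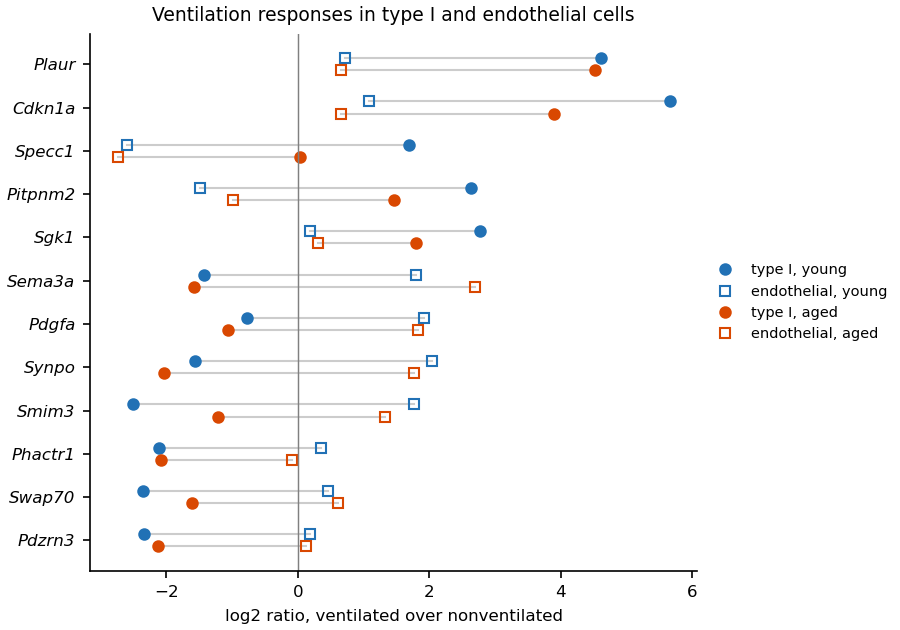
Log2 ratio of CPM after ventilation (x axis) in type I cells (filled circles) and endothelial cells (open squares) of young (blue) and aged (orange) mice, for 12 genes that differ between the classes by the interaction test. Sema3a, Pdgfa, Synpo and Smim3 lie left of 0 in type I cells and right of 0 in endothelial cells at both ages.

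Set against type II cells in the same way, 20 of 8294 genes had a different response (0.241%). The interaction was positive for 12 (0.145%), meaning a higher log2 ratio in type I cells, and negative for 8 (0.0965%). The type II sums rest on 19 to 32 barcodes. Of the 20 genes, 16 passed with any 1 library left out, 11 with the restricted set and 9 with both. The count itself ran from 48 to 198 with 1 library left out and was 97 with the restricted set. Gadd45g had 73.1, 99.1, 78.3 and 123 CPM in type II cells (interaction 2.42, SE 0.38, adjusted p = 0.041), where both ventilated libraries were higher by less than 2-fold. Id2, an inhibitor of helix-loop-helix factors, stood at 17.5, 80.6, 18.4 and 90.7 CPM in type I and 141, 111, 205 and 121 CPM in type II cells (interaction 2.74, SE 0.39, adjusted p = 0.0319). Krt7, a keratin that type I cells express at rest, stood at 1152, 1576, 1104 and 1456 CPM in type I and 62.3, 579, 76.3 and 375 CPM in type II cells, where it was high after ventilation (interaction -2.41, SE 0.35, adjusted p = 0.0319). Cdkn1a passed here too, with 16.2, 109, 88.4 and 143 CPM in type II cells (interaction 3.16, SE 0.42, adjusted p = 0.0226, and up to 0.0650 with 1 library left out). Inmt, which fibroblasts express, also passed, with 815, 227, 549.5 and 317 CPM in type I cells, 18.9, 7.7, 9.74 and 4.29 CPM in the restricted set and 579.5, 1.91, 243 and 2.19 CPM in type II cells. The part of barcodes with other lineages in type II cells was not tested.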

How the data were processed

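The authors deposited raw UMI counts per gene and barcode, which per the labels were made with Cell Ranger 7.0.0 on the mm10 genome after 10x 3′ v3.1 capture, with reads counted without normalization. Each of the 4 libraries pooled 3 mice, and depth ranged from 40655452 to 45218176 UMIs per library. Counts were summed over type I barcodes in Python 3.11.15 (numpy 2.4.6, scipy 1.17.1, pandas 2.3.3) and divided by the sum of that library. Ratios of CPM carry exact binomial intervals, and levels exact Poisson ones. Differences between cell classes were tested with edgeR 4.0.16 (R 4.3.3, TMM factors, quasi-likelihood) with the library as a block, since both classes of a library come from the same pool of mice. The fits left 2 residual degrees of freedom for the response to ventilation. The test was tried on simulated data, in which 98% of 4-fold differences between type I and type II cells and 8% (endothelial) and 10% (type II) of 4-fold differences in response were recovered. Their spread was set rather than fitted, both classes had the same mean levels, and the changed genes were picked above a count limit. These shares are therefore not the power of the tests on these data.

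Genes were named when among the 8 largest ratios each way in a comparison (a UMI in 20% or more of type I cells, an interval that leaves out 1), among the 10 largest folds each way past the test, or on one of 30 gene lists. Fmo2, Naaladl2, Gpr137c, Cd24a and Ifi27l2a were named after their values were seen, as the genes past the threshold with age in both conditions. The members and lists were chosen with earlier results of these data known. Alternatives were DESeq2 1.42.0, no block, other cell and expression limits, thinning, the mean over barcodes, and each library left out in the tests. Leaving out the 42 barcodes in the tests was added after the data were seen. No doublet caller was run. Some members of the lists are counted but not reported by name here.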

Additional observations from a re-analysis of the deposited data

Results flagged for a closer look

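Irf1, an interferon-induced transcription factor, moved in opposite directions after ventilation at the 2 ages, with a log2 ratio of 1.70 in young and -1.15 in aged mice. It stood at 28, 93.7, 82.3 and 36 CPM, on 24, 86, 103 and 25 UMIs. In the restricted set it stood at 15.1, 49.3, 15.8 and 30.0 CPM, and the log2 ratios were 1.58 and 0.92. The difference between the ages was not tested.

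The response to ventilation differed between cell classes, by the interaction term of edgeR's test, for 102 genes between type I and endothelial cells and for 20 genes between type I and type II cells. Beside these, 1652 and 721 genes had an unadjusted p under 0.05.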

How the results depend on the processing

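Of the tests between cell classes, with 2272, 102 and 20 genes past the threshold (type I against type II cells, response against endothelial cells, response against type II cells), the counts without a filter on low counts were 3437, 760 and 214. With 1 library left out, they ran from 1491 to 2034, from 9 to 306 and from 48 to 198. Without the aged nonventilated library the first was 1491, and for the last the counts were 70 and 48 without the young nonventilated or ventilated library and 198 and 83 without the aged ones. Leaving out the 42 barcodes gave 505 genes for the second, of which 86 were shared, and 97 for the third, of which 11 were shared. DESeq2 gave 1829, 122 and 25. Without the replicate block, here the library that both classes share, the counts were 1897, 69 (62 shared) and 20 (16 shared). The block paired classes within a library, and the libraries themselves share no replicate number beyond 1.

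Within type I cells, the number of genes past 2-fold depended on the limit on low values. With no minimum mean CPM it was 1385 and 1098 for ventilation in young and aged mice and 387 and 705 for age in nonventilated and ventilated mice, and with a mean of 10 CPM or more it was 1385, 1071, 376 and 705, where fewer UMIs stand behind each ratio. At 10 CPM, 467 genes were higher and 604 lower after ventilation in aged mice, against 192 and 151 at 50 CPM. With each barcode thinned to 1000 UMIs, it was 164 of 822 and 124 of 732 measured genes for ventilation in young and aged mice. For age in ventilated mice it was then 68 of 783. Fewer genes were measured there than in the main setting (3432, 3419 and 3452), so these counts cannot be compared directly. With the mean over barcodes, the number of genes past 2-fold was 621 and 562 for ventilation in young and aged mice. For age it was then 264 and 383 in nonventilated and ventilated mice. For age in nonventilated mice it was 26 with at least 4 markers, 82 with at most 5000 genes and 25 without the 42 barcodes. The share of type I cells was 3.01% in the young ventilated library with at least 4 markers and 2.83% with at least 1000 UMIs, and 2.22% in the aged ventilated library with at least 1000 UMIs.

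Among the genes described above that were past 2-fold with a counting interval that left out 1, these changed sign under another setting. For ventilation in aged mice, Gclm had a log2 ratio of -0.48 with at least 4 markers, Itga6 0.58 with at most 5% mitochondrial UMIs, and Irf1 0.42 with at least 4 markers, 0.92 without the 42 barcodes and 1.32 when also thinned. For age in nonventilated mice, without the 42 barcodes and when also thinned, Mt1 had -0.85 and -0.81, Itga6 -0.37 and -0.42 (and -0.31 with at least 4 markers), Irf1 -0.58 when thinned, and Ifi27l2a -1.63 and -1.0. For age in ventilated mice, Ifi27l2a had -2.42 with at least 4 markers, -0.85 with at most 5000 genes, -0.52 without the 42 barcodes, -1.0 when also thinned and -1.27 without the deepest 10% of barcodes, and Fosl1 0.022 with the mean over barcodes. The cause was not tested. A reversal was counted only for a ratio whose counting interval left out 1. Over the 239 ratios of genes the rule named or list genes past 2-fold, each under 14 settings, 183 had no such reversal while 56 did in at least 1 setting. Pooling of mice leaves the spread between animals unknown, and 694339 UMIs in the smallest sum limit what can be seen of genes under 50 CPM.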

Other observations

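Inflammatory genes were sparsely measured in type I cells. Of 21 inflammatory and NF-κB genes, 8 were measured in young mice, of which 4 were higher past the threshold after ventilation, and 9 in aged mice, of which 4 were higher and 1 lower. With the restricted set, 4 of 6 and 2 of 6 were higher. Of 20 interferon and MHC class I genes, 2 of 6 were higher in young mice and 2 of 8 lower in aged mice, and 0 of 5 and 1 of 5 in those directions with the restricted set. Of the integrated stress response genes, 4 of 5 measured were higher in young and 2 of 6 in aged mice, and 3 of 5 and 1 of 5 with the restricted set. Of the EGF receptor ligands and receptors, 4 were measured at each age, with 2 higher and 1 lower past the threshold in young mice and 2 higher in aged mice, where 1 of 4 was higher with the restricted set. Of 7 measured caveola genes, 1 was higher in young mice and none in aged mice, and none at either age with the restricted set. Egfr, the receptor of Hbegf, stood at 224, 110.0, 230.0 and 164 CPM in type I cells, lower in both ventilated libraries, and at 14.1, 69.5, 12.2 and 34.3 CPM in endothelial cells, where both ventilated libraries were high. Its log2 ratios in type I cells were -1.02 in young and -0.48 in aged mice.

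A single deep barcode set the level of Lyz2 in 1 library. Lyz2, the lysozyme of macrophages and type II cells, stood at 23.3, 28.3, 42.3 and 1119 CPM, and 1 barcode held 90.7% of its UMIs in the aged ventilated library. In the restricted set it stood at 34, 35.4, 39 and 45 CPM. Thbs1, a matricellular protein, stood at 101, 1258, 173 and 416 CPM and at 28.3, 997, 35.3 and 111 CPM in the restricted set, with every level lower there and the ventilated library higher at each age in both.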
